A study of Rattus norvegicus with 16 samples.

Results

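The 6 genes described here encode subunits of the NMDA receptor: Grin1, Grin2a, Grin2b, Grin2c, Grin2d and Grin3a. The set was chosen with earlier results of these data known. Its probes were taken by symbol, as every probe of the array that carries one of these 6 names, and no measured value entered that step. The set accounts for 13 probes and for 6 of the 16974 genes on the array. Grin1 and Grin3a have 3 probes each, Grin2a, Grin2c and Grin2d have 2, and Grin2b has a single probe. The samples were total RNA of LOU/C/Jall rats, an inbred strain, all male, with 1 one-colour Agilent array per sample and 16 arrays in all. The 4 groups of 4 arrays were young hippocampus, old hippocampus, young frontal cortex and old frontal cortex, with no treatment, transgene or second strain. The old rats were 26 months old, and the young rats were 5 months old by the sample labels but 3 months old by the design text. Arrays are named by the codes in their titles: young arrays are AA, AB, Y or Z, old arrays are AF, AG, AH or AI, and a code occurs once in either region. The labels do not say whether a code is 1 animal, so p-values describe the spread between these samples.

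The NMDA receptor is a glutamate-gated calcium channel that opens only when glutamate and a coagonist, glycine or D-serine, are bound and the membrane is depolarised enough to expel magnesium. Every receptor holds GluN1, the product of Grin1, together with GluN2 subunits, which bind glutamate and set how long the channel stays open, or GluN3 subunits, which bind glycine and lower calcium entry. In the hippocampus and neocortex the receptor is known for triggering long-term potentiation, and during postnatal development GluN2A is added to receptors that at first hold mainly GluN2B.

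RefSeq start-site windows on the GRCr8 assembly, from 250 bases before to 50 bases after the gene start, were on hand for 4 of the 6 genes: Grin1, Grin2c, Grin2d and Grin3a. Those of Grin1 and Grin3a are shown, the first because its product is in every receptor and the second because its level differed between regions. Both lie on the minus strand and are written 5′ to 3′ in the direction of transcription. Capitals mark a GC box, GGGCGG, and the partly overlapping GCGGGGGCG, the site known for the Egr family, both searched on either strand.
Grin1, chr3:28528705-28529004: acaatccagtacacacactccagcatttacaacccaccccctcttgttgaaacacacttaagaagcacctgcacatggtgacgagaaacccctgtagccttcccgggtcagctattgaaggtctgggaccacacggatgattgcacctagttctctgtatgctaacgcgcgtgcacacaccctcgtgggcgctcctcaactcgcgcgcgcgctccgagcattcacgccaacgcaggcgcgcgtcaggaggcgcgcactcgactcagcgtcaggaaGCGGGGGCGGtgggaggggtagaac
Grin3a, chr5:69001509-69001808: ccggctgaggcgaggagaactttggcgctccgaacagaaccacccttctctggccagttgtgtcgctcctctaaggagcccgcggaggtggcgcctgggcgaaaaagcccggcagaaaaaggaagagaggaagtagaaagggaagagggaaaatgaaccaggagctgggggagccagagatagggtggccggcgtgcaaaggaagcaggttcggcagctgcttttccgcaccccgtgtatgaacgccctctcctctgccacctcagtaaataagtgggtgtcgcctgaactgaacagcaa
Neither motif is written in the Grin3a window or in those of Grin2c and Grin2d. A GC box is present in 33.1% of the 33469 windows of the table and the Egr-type site in 2.73%. The GC content was 59.7% for Grin1, 60.3% for Grin2c, 60.7% for Grin2d and 58.7% for Grin3a, against a median of 51.7% over all windows.

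Levels are log2 signals set to 0 at the 75th percentile of each array's gene probes, and a gene is read from its probe of highest mean signal. A gene entered the tests if its highest group mean passed an intensity minimum of -2.95 on this scale. All 6 subunit genes passed, among 10056 genes, and all 6 lay above the minimum in each of the 4 groups. Probes differ in brightness, so a level is compared only with the same probe in other samples. The Grin2b probe was the dimmest of the 6, 1.66 to 2.17 log2 above the mean of 308 negative control spots. The Grin2d and Grin2c probes were the brightest, at percentiles 97.97 and 91.9 among genes, against 58.02 for Grin1. Whether the probes bind other transcripts was not tested. The tissue labels were checked against markers. All 6 tested hippocampal markers, such as C1ql2 (4.27 log2) and Fibcd1 (3.32 log2), were higher in hippocampus, and the means of the list did not overlap between regions. Of 5 tested frontal cortex markers, Lamp5, Cux1 and Rorb were lower in hippocampus while Nr4a2 and Rasgrf2 were higher. Markers of neighbouring tissues differed between arrays. The mean of 8 choroid plexus markers was 2.64 and 3.05 in young hippocampus Y and AB, and 2.40 and 3.37 in old hippocampus AH and AI, against -0.66 to 0.30 in the other 4 hippocampus arrays. The mean of 6 striatal markers was 1.30 and 1.47 in young frontal cortex AA and AB and 2.26 in old frontal cortex AG, against -0.39 to 0.68 in the other 5 cortex arrays. Member results and gene counts were therefore also computed without these 4 hippocampus arrays and without these 3 cortex arrays, an alternative chosen after the marker means were seen.

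Over both ages, Grin2a and Grin2b were higher in hippocampus and Grin3a was higher in frontal cortex, while Grin1, Grin2c and Grin2d did not pass the test. These are 3 of 6 genes called at an adjusted p under 0.05, where 28.8% of all tested genes were called. The median difference of the 6 genes was 0.12 log2, beside 0.003 over all genes. Since the RNA came from whole tissue, fewer cells of a type and less RNA per cell cannot be told apart.

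Grin2a encodes GluN2A, the subunit of fast-closing synaptic receptors in the adult forebrain. Its 4 young hippocampus arrays read 0.24, 0.36, 0.43 and 0.99, and the 4 young frontal cortex arrays read -0.41, -0.41, -0.24 and -0.12. The old hippocampus arrays read 0.07, 0.43, 0.56 and 0.57, and the old frontal cortex arrays read -0.59, -0.16, -0.08 and -0.01. Every hippocampus array was therefore above every frontal cortex array, in the young and in the old. Genes higher in hippocampus without overlap made up 11.5% of those tested in the young and 8.95% in the old. The fitted difference was 0.71 ± 0.12 log2 (SE), or 1.63-fold, with an adjusted p of 0.00018. Grin2a was also called within each age, at 0.80 log2 in the young (adjusted p = 0.0025) and 0.62 log2 in the old (adjusted p = 0.015), where 13.8% and 18.7% of genes were called. The second probe gave 0.68 log2 (adjusted p = 0.0006). The call held in each of 12 alternatives and in all 16 fits that left out 1 array, with differences of 0.63 to 0.76 log2 over the latter. Without the 4 choroid-rich hippocampus arrays the difference was 0.84 log2, and without the 3 striatum-rich cortex arrays 0.70 log2.

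**Figure D1:**
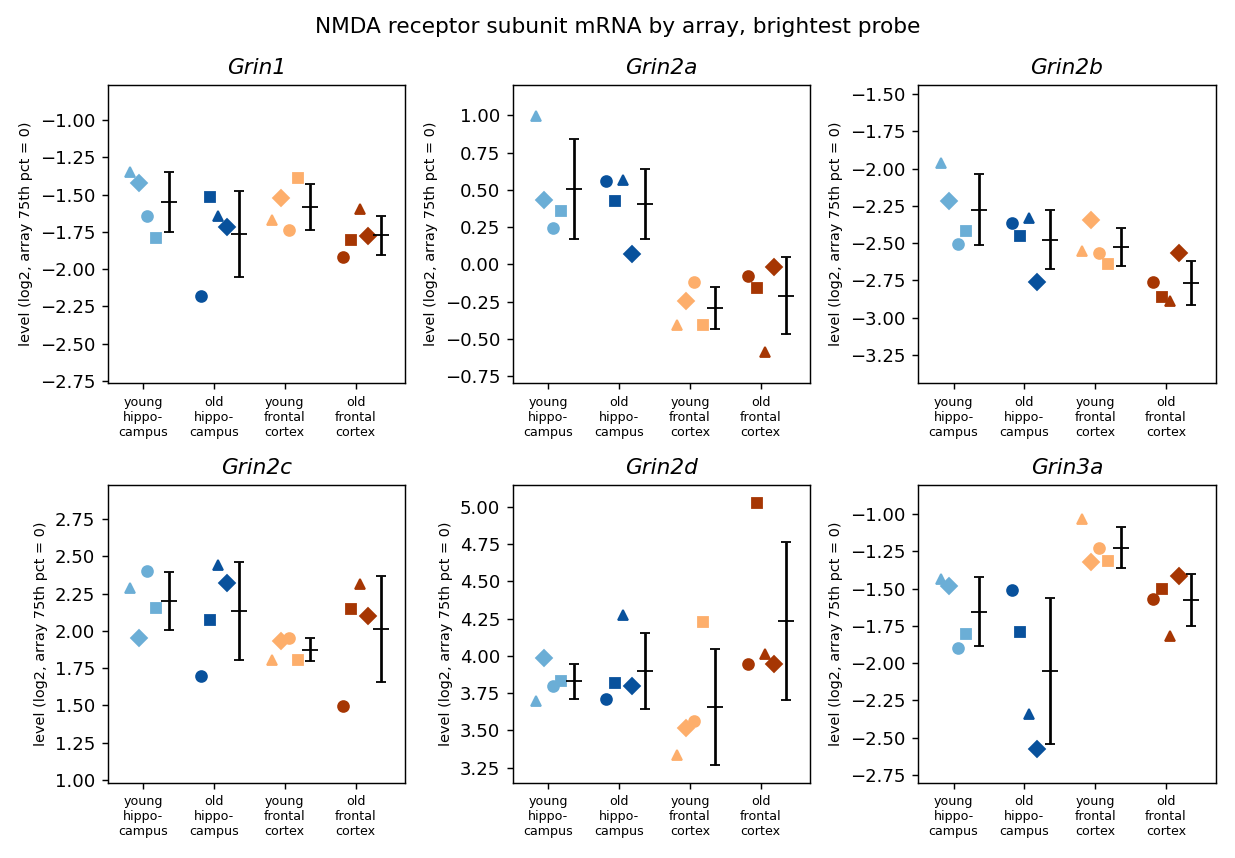
Level of each subunit gene (log2, 0 at the array's 75th percentile) in the 16 arrays, by group; points are arrays, with circle, square, triangle and diamond for Y, Z, AA and AB or for AF, AG, AH and AI, and bars are mean ± SD of 4. Grin2a separates the regions at both ages, Grin3a is lowest in 2 old hippocampus arrays, and 1 old cortex array stands alone for Grin2d at 5.03.

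Grin2b encodes GluN2B, whose receptors close slowly and predominate early in life. The young hippocampus arrays read -2.50, -2.42, -2.22 and -1.96, and the old ones -2.76, -2.45, -2.37 and -2.33. In frontal cortex the young arrays read -2.64, -2.56, -2.55 and -2.35, and the old ones -2.89, -2.86, -2.76 and -2.56. The groups overlapped at both ages. The difference over both ages was 0.27 ± 0.09 log2, or 1.21-fold (adjusted p = 0.03), and neither age alone was called (0.25 log2 in the young, 0.29 log2 in the old). The call was lost in 10 of the 16 fits without 1 array: young hippocampus AA or AB, old hippocampus AF, AG or AH, young frontal cortex AA, Y or Z, and old frontal cortex AG or AH. In those fits the difference was 0.22 to 0.27 log2 and the adjusted p 0.0507 to 0.0622. It was also lost without the 3 striatum-rich cortex arrays, at 0.29 log2 and an adjusted p of 0.062. With the title code as a fixed block in the limma fit, the call was lost at an adjusted p of 0.052.

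Grin3a encodes GluN3A, a glycine-binding subunit that lowers calcium permeability and is known from rodents to be most abundant in the juvenile brain. The young frontal cortex arrays read -1.32, -1.32, -1.23 and -1.03, all above the young hippocampus arrays at -1.90, -1.81, -1.48 and -1.44. Genes lower in hippocampus without overlap were 12.7% of those tested in the young. In the old, the frontal cortex arrays read -1.82, -1.57, -1.50 and -1.42, and the hippocampus arrays read -2.58, -2.34, -1.79 and -1.51, with overlap. Hippocampus was lower by 0.45 ± 0.13 log2 over both ages, a difference of 1.37-fold (adjusted p = 0.017). The other probes gave -0.38 log2 (adjusted p = 0.032) and -0.43 log2 (adjusted p = 0.058). Neither age alone was called, at -0.43 log2 in the young (adjusted p = 0.16) and -0.48 log2 in the old (adjusted p = 0.09). The call held in all 16 fits that left out 1 array. Without the 4 choroid-rich hippocampus arrays it was lost, at -0.23 log2 and an adjusted p of 0.13. Without the 3 striatum-rich cortex arrays it was lost as well, at -0.42 log2 and an adjusted p of 0.086.

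The remaining members gave no regional call in the main fit. Grin1, the obligatory glycine-binding subunit, differed by 0.02 log2 with a 95% interval of -0.19 to 0.22. Its group means were -1.55 ± 0.20 (SD, n = 4) in young hippocampus, -1.58 ± 0.15 in young cortex, -1.76 ± 0.29 in old hippocampus and -1.77 ± 0.13 in old cortex, and no neighbours in that order differ beyond their spread. Grin2c, best known from cerebellar granule cells, read 1.95 to 2.40 in young hippocampus and 1.80 to 1.95 in young cortex. Its highest young cortex array, at 1.950, was just under the lowest young hippocampus array, at 1.951. The old Grin2c arrays overlapped, at 1.70 to 2.45 in hippocampus and 1.498 to 2.314 in cortex. The Grin2c difference over both ages was 0.22 ± 0.12 log2 (interval -0.03 to 0.48, adjusted p = 0.19). With the title code as a fixed block in the limma fit, Grin2c was called (adjusted p = 0.036). Grin2d, known from brain stem, diencephalon and forebrain interneurons, differed by -0.08 log2 (interval -0.42 to 0.26).

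**Figure D2:**
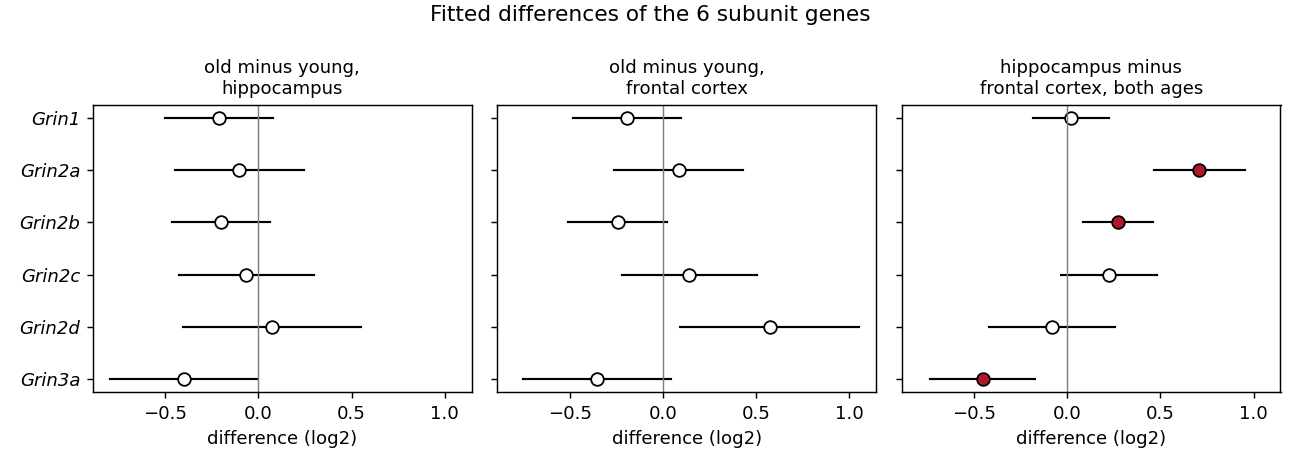
Fitted differences (log2) of the 6 genes with 95% intervals: old minus young in hippocampus, old minus young in frontal cortex, and hippocampus minus frontal cortex over both ages. Filled points passed an adjusted p of 0.05, and the filled points are Grin2a, Grin2b and Grin3a in the region comparison.

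No subunit gene passed the test for age in either region. Of all tested genes, 0.0398% were called for age in hippocampus and 0.965% in frontal cortex, so few calls were made anywhere. The cortex total rested on single arrays, with 97 genes called from all arrays, 4 without young cortex Z and 741 without old cortex AI, but no member was called in any of these fits. With limma, 0 of 6 members were called in each region, and 1 of 6 in each had an unadjusted p under 0.05: Grin3a in hippocampus and Grin2d in frontal cortex. Over all genes, 6.77% in hippocampus and 22.2% in frontal cortex had one. In hippocampus 5 of 6 differences were negative, with a median of -0.15 log2 beside 0.01 over all genes. In frontal cortex 3 of 6 were negative, with a median of -0.05 log2 beside 0.001. A p that misses the threshold does not show equal levels, and the intervals give the sizes these arrays leave possible.

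Grin3a had the lowest value of the 6 age differences in each region. In hippocampus the difference was -0.40 ± 0.19 log2 (interval -0.80 to -0.001, adjusted p = 0.73), and the groups overlapped. The old arrays AH and AI, at -2.34 and -2.58, lay below all 4 young arrays, while AF and AG, at -1.51 and -1.79, lay within the young range. The difference was -0.22 log2 without AI and -0.58 without AF. AH and AI are the old arrays rich in choroid plexus markers. Without the 4 choroid-rich arrays the difference was -0.03 log2 (adjusted p = 0.98), from 2 arrays per age. In frontal cortex all 4 old arrays lay below all 4 young arrays, and 6.01% of tested genes were lower in the old cortex without overlap. That difference was -0.35 ± 0.19 log2 (interval -0.75 to 0.05, adjusted p = 0.28). The other Grin3a probes, 27394 and 53332, gave -0.21 and -0.16 log2 in frontal cortex, and -0.32 and -0.13 log2 in hippocampus. Their groups overlapped in both regions. On probe 27394 the old hippocampus arrays AH and AI, at -2.635 and -2.896, also lay below all 4 young arrays. On probe 53332 only AI did, at -2.481, while AH, at -2.176, lay above the lowest young array, at -2.305.

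Grin2d had the largest positive age difference, in frontal cortex, at 0.57 ± 0.23 log2 (interval 0.09 to 1.05, adjusted p = 0.16). The young cortex arrays read 3.34, 3.52, 3.56 and 4.23, and the old ones 3.94, 3.95, 4.01 and 5.03. Young array Z lay above 3 of the 4 old arrays. The highest value belongs to AG, the cortex array with the highest striatal marker mean, and both Grin2d probes read it high (5.03 and 5.00). The striatum-rich young arrays AA and AB read only 3.34 and 3.52, while young Z, with a striatal mean of -0.39, read 4.23. Without AG the difference was 0.31 log2, and without the 3 striatum-rich cortex arrays 0.07 log2. The latter fit also lost young AA and AB, so only Y and Z, at 3.56 and 4.23, stood for the young cortex. In hippocampus, where the young arrays read 3.697 to 3.986 and the old ones 3.71 to 4.28, the difference was 0.07 log2 (interval -0.41 to 0.55).

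For Grin1 the age difference was -0.21 ± 0.14 log2 in hippocampus (interval -0.50 to 0.08) and -0.19 ± 0.14 in frontal cortex (interval -0.48 to 0.10). For Grin2b it was -0.20 ± 0.13 log2 in hippocampus (interval -0.47 to 0.06) and -0.24 ± 0.13 in frontal cortex (interval -0.51 to 0.02). Single arrays moved the hippocampal values. For Grin1 the difference was -0.07 log2 without old array AF and -0.30 without AG, and limma's array weights gave -0.05. For Grin2b it was -0.10 log2 without young array AA and -0.11 without old array AI. In frontal cortex Grin1 was -0.13 log2 without young array Z. For Grin2a the differences were -0.10 log2 in hippocampus (interval -0.45 to 0.24) and 0.09 in frontal cortex (interval -0.26 to 0.43). For Grin2c they were -0.07 log2 (interval -0.43 to 0.30) and 0.14 (interval -0.22 to 0.51). Leaving out 1 array moved the cortex values between 0.02 (without old AI) and 0.21 (without old AH) for Grin2a, and between 0.04 (without old AH) and 0.31 (without old AF) for Grin2c. In old hippocampus and in old frontal cortex alike, Grin2c was lowest in array AF (1.697 and 1.498) and highest in AH (2.445 and 2.314).

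Of the 3 Grin1 probes, 815 and 35283 read lower in the old on average, neither passed the test, and differences between the probes were not tested. Probes 815 and 35283, of similar brightness, gave -0.21 and -0.27 log2 in hippocampus and -0.19 log2 each in frontal cortex, with overlapping groups. Probe 5929 was the dimmest of the 3. Its mean of -2.94 in young hippocampus just passed the intensity minimum of -2.95, and its means of -3.36 in old hippocampus, -3.03 in young cortex and -3.57 in old cortex lay under it. It therefore entered the probe fit through 1 group only, young hippocampus, which favours a lower reading in the old hippocampus. The values of probe 5929 are given as a description with no test. On this probe the young hippocampus arrays read -3.19, -3.02, -2.86 and -2.70, and the old ones -3.62, -3.41, -3.23 and -3.21. The young cortex arrays read -3.14, -3.03, -3.01 and -2.95, and the old ones -3.98, -3.54, -3.54 and -3.20. This probe stood 0.87 log2 above the negative control mean in old cortex and 1.51 in young hippocampus. Over the 16 arrays the Grin1 probes correlated at r = 0.68 to 0.77, while the probe pairs of Grin2a, Grin2c and Grin2d correlated at 0.98, 0.96 and 0.98 and those of Grin3a at 0.86 to 0.94.

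**Figure D3:**
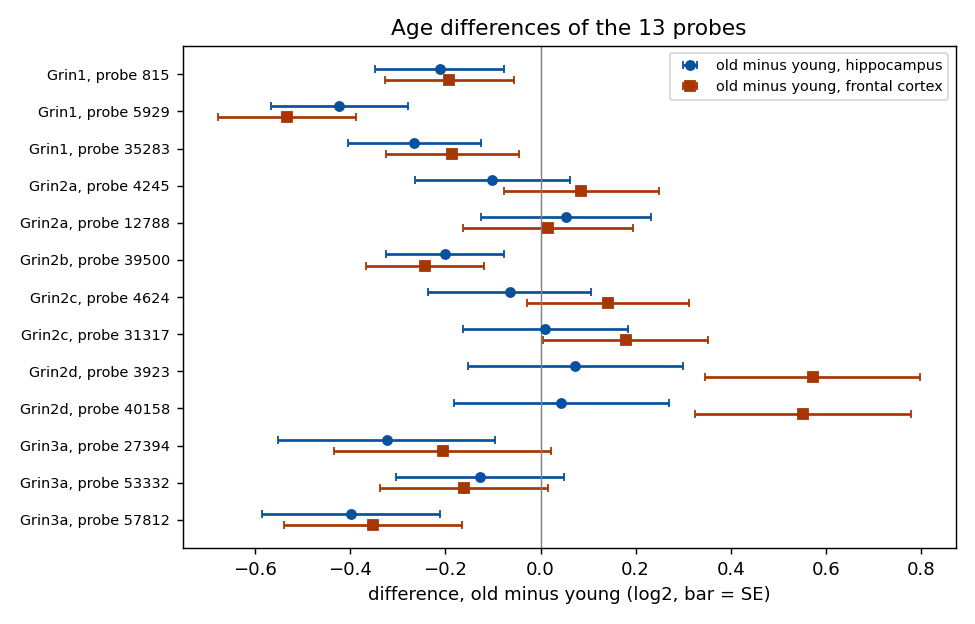
Age differences (old minus young, log2, bars are SE) of all 13 probes, each fitted on its own, in hippocampus (circles) and frontal cortex (squares). The 2 Grin2d probes lie furthest right in frontal cortex. Grin1 probe 5929, furthest left in both regions, was under the intensity minimum in 3 of 4 groups and is shown as a description.

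The age differences themselves were compared between regions. None of the 6 genes passed, none had an unadjusted p under 0.05, and the share of all tested genes called was 0% (2.65% had an unadjusted p under 0.05). The widest gap was for Grin2d, whose age difference in hippocampus was 0.50 ± 0.32 log2 below that in frontal cortex (interval -1.18 to 0.18). The other 5 gaps lay between -0.21 log2 for Grin2c and 0.04 log2 for Grin2b. No age difference of a subunit was therefore shown to be particular to a region.

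The balance of the GluN2A and GluN2B messages was read within each array as Grin2b minus Grin2a. The probes differ in brightness, so only changes of this value between groups carry meaning, and they show unequal change of the 2 genes. The young hippocampus arrays read -2.96, -2.78, -2.75 and -2.65, and the old ones -2.93, -2.89, -2.88 and -2.83. The young cortex arrays read -2.45, -2.23, -2.14 and -2.10, and the old ones -2.70, -2.68, -2.55 and -2.30. Every hippocampus array lay below every cortex array of the same age. The mean in hippocampus was 0.55 log2 lower in the young and 0.32 lower in the old. An exact two-sided permutation test gave p = 0.029 for each, the smallest that 4 arrays against 4 allow, and 0.057 after adjustment over the 4 pairs. Old cortex was 0.33 log2 below young cortex (exact permutation p = 0.057, adjusted 0.076), with old array AH inside the young range. Old and young hippocampus differed by -0.10 log2 (exact permutation p = 0.2). None of these passed after adjustment. For a fully separated pair, passing would have needed most of the 4 pairs to separate fully, so the 2 regional results could not pass alone. Without the 3 striatum-rich cortex arrays the cortex age difference was -0.17 log2.

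**Figure D4:**
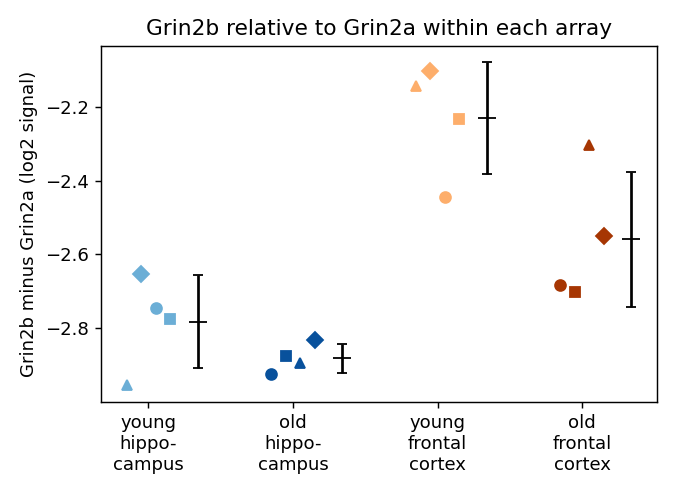
Grin2b minus Grin2a (log2 signal, within each array) by group; points are arrays and bars are mean ± SD of 4. Within each age the cortex arrays lie above the hippocampus arrays, and old cortex spans -2.70 to -2.30 against -2.45 to -2.10 in young cortex.

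The means of some cell type marker lists also differed between regions. The mean of 6 glutamatergic neuron markers, given as the deviation from each gene's mean, was 0.12 to 0.43 in young hippocampus and 0.07 to 0.36 in old hippocampus, against -0.32 to -0.08 and -0.41 to -0.08 in the cortex groups. Of these 6, Slc17a7, Neurod6, Neurod2 and Nrn1 were called higher in hippocampus, while Camk2a (0.024 log2) and Rtn4r (-0.075 log2) were not called. In each of the 4 groups the array with the highest Grin2a level also had the highest such mean, but the full orders differed. These arrays were AA in young hippocampus (0.99 and 0.43) and AH in old hippocampus (0.565 and 0.36). In cortex they were Y in the young (-0.12 and -0.08) and AI in the old (-0.01 and -0.08). The match in old hippocampus was close to a tie, as AF read 0.560 for Grin2a with a marker mean of 0.109. On the second Grin2a probe AF was above AH there, at 0.592 against 0.575. The mean of 8 interneuron markers was -0.52 to -0.12 in young and -0.51 to 0.14 in old hippocampus, against 0.11 to 0.43 and 0.07 to 0.37 in cortex. Of these 8, Pvalb, Sst, Vip, Lhx6 and Dlx1 were called lower in hippocampus. Gad1, Gad2 and Slc32a1, at -0.158, -0.077 and -0.127 log2, were not called. Old hippocampus arrays AF, AG, AH and AI had the same order in Grin3a (-1.51, -1.79, -2.34 and -2.58) and in the interneuron mean (0.14, -0.08, -0.31 and -0.51), but the orders differed in the other 3 groups. Old cortex AI, for example, had the highest Grin3a level of its group (-1.42) with an interneuron mean of 0.08, near the lowest. Astrocyte markers were higher in hippocampus (4 of 6 called) and endothelial markers lower (5 of 5). The part of these cell types in the subunit differences was not tested.

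**Figure D5:**
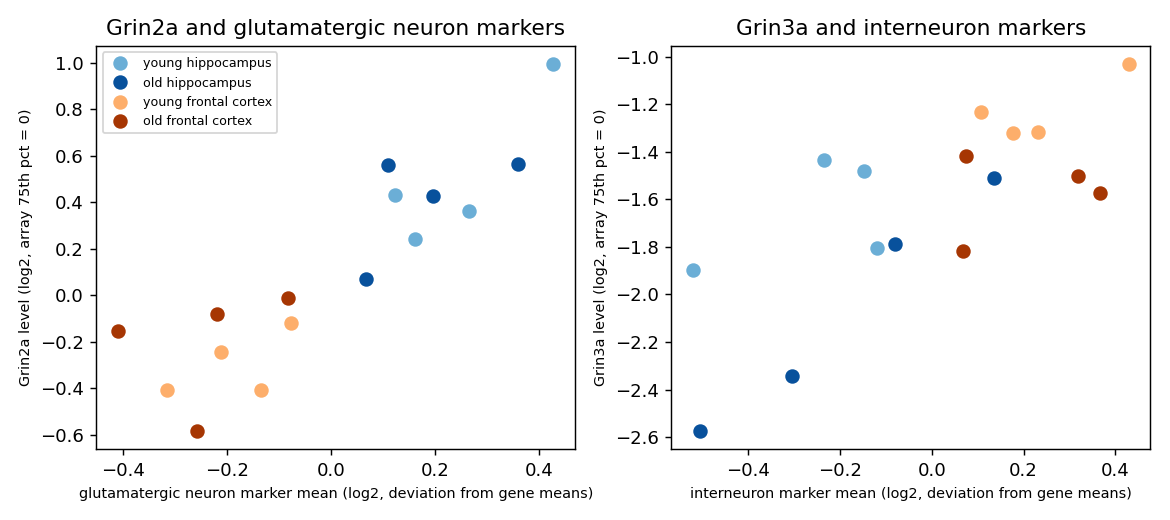
Left, Grin2a level against the mean of the glutamatergic neuron markers, and right, Grin3a level against the mean of the interneuron markers, both log2, 1 point per array, coloured by group. The hippocampus arrays lie at the upper right for Grin2a, and old hippocampus AH and AI lie at the lower left for Grin3a.

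Genes that work with the receptor were read from 7 lists of 98 genes, of which 81 were tested. For age, 0 were called by limma in either region, with 2 at an unadjusted p under 0.05 in hippocampus and 21 in frontal cortex, and medians of -0.03 and -0.12 log2. The shares over all genes were 0.0398% and 0.965% called, and 6.77% and 22.2% at an unadjusted p under 0.05. For region, 36 of 81 were called, 18 in each direction, and their median difference was 0.02 log2. The background was 28.8% of the 10056 tested genes, 1446 higher and 1451 lower in hippocampus. The counts of the single lists are descriptions, and no list was shown to stand apart from that share. Partner values are from the fit of all arrays, the choroid-rich and striatum-rich ones included.

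Among 19 scaffolds and postsynaptic partners, 2 were higher and 7 lower in hippocampus. Homer3 was higher by 1.37 log2 and Homer2 by 0.37, while Homer1, which like them links metabotropic receptors to the NMDA receptor scaffold through Shank proteins, differed by -0.84 log2. Dlg1 (SAP97) and Dlg2 (PSD-93), membrane guanylate kinases that bind GluN2 tails, differed by -0.55 and -0.37 log2, and Nos1ap, an adaptor of neuronal nitric oxide synthase, by -0.79. Among 17 downstream signalling genes, 5 were higher and 3 lower. Camk2b and Ppp3ca, a kinase subunit and the calcineurin catalytic subunit that respond to calcium, were higher in hippocampus by 0.72 and 0.65 log2, and Camk4 differed by -0.88. Among 14 kinases and phosphatases acting on the subunits, 3 were higher and 3 lower. Ptk2b (Pyk2) and Src, tyrosine kinases that enhance receptor currents, were higher by 0.72 and 0.39 log2, and Ptpn5 (STEP), which dephosphorylates GluN2B, differed by -0.29.

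Of 11 trafficking and expression regulators, 0 were higher and 4 were lower in hippocampus. They were Mef2c (-1.86 log2), an activity-regulated transcription factor, Lin7a (-0.96) and Lin7b (-0.33), of the complex that carries GluN2B vesicles, and Ap2m1 (-0.16), the clathrin adaptor subunit. Of 11 genes of coagonist supply and removal, 3 were higher and 1 lower. Phgdh, the first enzyme of serine synthesis, was higher by 0.27 log2, as was Slc7a10, a D-serine and glycine transporter, by 0.32, whereas the amino acid transporter Slc38a1 differed by -0.35. Of 8 genes of glutamate release and clearance, 4 were higher, among them the vesicular transporters Slc17a6 (0.95 log2) and Slc17a7 (0.44). Grina, a glutamate receptor-associated protein that is no channel subunit despite its name, was higher by 0.50 log2.

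With age in frontal cortex, the smallest p among these genes was that of Kalrn, a spine exchange factor, at -0.47 ± 0.13 log2 (adjusted p = 0.077). Slc17a7 (-0.45 log2, adjusted p = 0.089), the fusion factor Nsf (-0.48 log2, adjusted p = 0.091), Cdk5 (-0.31 log2, adjusted p = 0.091) and its activator Cdk5r1 (-0.42 log2, adjusted p = 0.096) followed, and none passed. Srr, the enzyme that makes D-serine, differed by -0.28 log2 in hippocampus (adjusted p = 0.67) and by -0.27 in frontal cortex (adjusted p = 0.17).

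The subunit genes did not vary as 1 group over the 16 arrays. Grin2a and Grin2b were the closest pair, at r = 0.78, and at r = 0.85 after group means were removed. Grin2c and Grin3a ran opposite, at r = -0.63 and -0.62 within groups. Grin1 correlated with no other member above 0.34, or 0.46 (Grin2c) after group means were removed. These values share arrays, scaling and the regional difference, and are given as a description. The genes most like Grin2a were Neurod2 (r = 0.95), a transcription factor of glutamatergic neurons, Nfib (0.94) and Nrp1 (0.93). For Grin2b they were Glg1 (0.89), Vamp7 (0.89) and RGD1311575 (0.88), and for Grin3a Dleu7 (0.91), Pcdh17 (0.90) and Rab35 (0.89). For Grin2d they were Sema6c (0.94), Nagpa (0.88) and Cdc14b (0.87), for Grin2c Cdc42se1 (0.90), Lrrc51 (0.88) and Anapc1 (0.88), and for Grin1 Tuba1c (0.85), Mrpl52 (0.81) and C5h1orf159 (0.81). After group means were removed these 18 correlations were 0.72 to 0.95.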

How the data were processed

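Values are the log2 signals the authors deposited, 1 column per sample, quantified with Agilent Feature Extraction per the submitters' processing notes. How background was corrected and arrays were normalized is not given in the sources used here. Values ran from 4.94 to 17.8 log2. Another deposited table has 16 signal columns that match no sample by name, and only its spot names were used. The 75th percentile of an array's gene probes (9.42 to 9.44) was subtracted from its values. A gene was its brightest probe, kept when its highest group mean passed the 40th percentile of probe means (10056 of 16974 genes). Symbols came from the platform annotation, updated by accession through a RefSeq table. R 4.3.3 with limma 3.58.1 fitted 4 group means to 16 arrays (12 residual and 4.07 prior degrees of freedom). Benjamini-Hochberg adjustment ran over the kept genes, and an adjusted p under 0.05 was called. The median residual SD was 0.165 log2, and precision is limited by how many arrays there are. The procedure was tested on simulated data, but no outcome of that is given here, so it does not bear on the calls. Named are all members, up to 4 genes of smallest p and up to 6 called genes per partner list and comparison, and the 3 genes most correlated with each member. Members and lists were chosen with earlier results of these data known. Alternatives covered scaling, the dim-probe filter, probe summary, variance model, array weights, samples in the fit, a block by title code and left-out arrays. Of 8 codes, 3 had both arrays deviating together at r over 0.1 (range -0.17 to 0.28), so codes were not used to pair arrays.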

Additional observations from a re-analysis of the deposited data

Results flagged for a closer look

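Grin2d in old frontal cortex had a sample far from the others. Array AG read 5.03 log2, against 3.94 to 4.01 in the other 3 arrays, and its gap to the next value was 0.94 of the whole range of the group, above Dixon's 95% critical value for 4 samples. Of 24 groups of 4 arrays, 6 genes in 4 groups, this was the only group so marked, and chance flags about 1 in 20. The second Grin2d probe read 5.00 in the same array against 3.94 to 4.07. Striatal markers were also highest there, at a mean of 2.26, as were oligodendrocyte markers, at 0.66 against -0.15 to -0.05 in the other 3. Young cortex arrays AA and AB, with striatal means of 1.30 and 1.47, read 3.34 and 3.52 for Grin2d. What part these tissues and cells have in the Grin2d value was not tested.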

How the results depend on the processing

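The 0 age calls among members held under every alternative run, as did the Grin2a region call. The number of members called for region was 3 as reported and 2 or 3 in every alternative but 1, without the 3 striatum-rich frontal cortex arrays, where it was 1. Leaving out 1 array gave 2 to 3. Grin1 and Grin2b were not tested under the stricter filter. Arrays of 1 code were not shown to be paired by the correlations above, but some marker lists followed the codes in part. The mean of 4 erythrocyte markers was 1.59 in hippocampus and 1.77 in cortex for AF, 0.325 and 0.136 for AH, 0.03 and -0.25 for AI, and -0.88 and -1.26 for AG. In the young, Y was highest (0.41 and 0.135) and Z lowest (-0.86 and -0.36) in both regions, while AA and AB changed order. The interneuron mean was highest in AF, then AG, in both old groups, and lowest in Y in both young groups. The mean of the meningeal and mural cell markers was highest in AI, then AH, in both old groups. It was lowest in AA in both young groups. The other positions in these lists changed between regions. Whether a code is 1 animal was not tested. A fixed replicate block by title code gave Grin2b 0.27 log2 at an adjusted p of 0.052, below the call, and Grin2c 0.22 log2 at 0.036, a call; the random block (consensus correlation 0.051) changed no member call. Without the 3 striatum-rich arrays, Grin2b was 0.29 and Grin3a -0.42 log2, and without the 4 choroid-rich hippocampus arrays Grin3a was -0.23 log2, none of them called; the cause was not tested, and fewer arrays entered these fits. No difference that changed sign or came to 0 was called in either setting. The gap of age differences between regions turned for Grin1 under array weights (0.098) and the mean of all probes (0.004), for Grin3a under array weights (0.121) and without the choroid-rich arrays (0.324), and without the striatum-rich arrays for Grin2b (-0.065) and Grin2d (0.00). The region difference turned for Grin1 without the choroid-rich arrays (-0.032) and for Grin2d under array weights (0.012). The hippocampal age difference of Grin2d was 0.00 without the choroid-rich arrays. Over the 16 fits without 1 array, the gap of age differences ran from -0.103 to 0.119 for Grin1, -0.034 to 0.146 for Grin2b and -0.227 to 0.128 for Grin3a. The region difference ran from -0.022 to 0.089 for Grin1, 0.219 to 0.319 for Grin2b and -0.144 to 0.051 for Grin2d. The hippocampal age difference ran from -0.190 to 0.061 for Grin2a, -0.169 to 0.080 for Grin2c and -0.052 to 0.136 for Grin2d. Over all genes, calls ranged from 0 to 12 for age in hippocampus (4 as reported), from 2 without the striatum-rich arrays to 741 without old frontal cortex AI for age in frontal cortex (97) and from 2124 to 8150 for region (2897, or 8150 when probes were tested singly).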
